A study of Mus musculus with 24 samples.

Results

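The genes described here form the interferon-gamma-responsive antigen presentation programme together with the interferon-inducible GTPases. These 40 genes were chosen by symbol for their function, with earlier results of these data known. All 40 have a row in each of the 4 tables, which list 24421, 24421, 24557 and 24340 genes. They comprise 8 class I chains, 5 genes of peptide transport, loading and trimming, 5 of the immunoproteasome and its activator, 3 regulators, 6 of the class II path, 7 guanylate-binding proteins and 6 immunity-related GTPases.

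The RNA came from murine leukemia cells of C57BL/6 bone marrow, cultured in medium containing SCF, IL3 and IL6, in 24 libraries that form 8 groups of 3. Of these, 18 carried an inducible fusion oncogene in cells labelled wild type. CALM-AF10 libraries were on or off, and MLL-AF10 and MLL-AF9 libraries were treated with DMSO or with doxycycline (DOX), the agent the labels give for switching the fusions. The remaining 6 libraries were CALM-AF10 cells whose Jak1 was floxed, either intact with DMSO or deleted by Cre-ER with 4-OHT (called Jak1 null), and no library received 4-OHT without a deletable Jak1, so the agent and the loss of Jak1 cannot be told apart. The inducible CALM-AF10 titles name DMSO and DOX whereas the table columns name on and off, and the comparison follows the columns. The labels do not say if replicate libraries were grown apart, and each p-value therefore rests on a spread between libraries that may be technical. In the inducible models, CALM-AF10 included, no library received DOX without an inducible fusion. The agent and the fusion therefore cannot be told apart there either.

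Class I molecules show peptides from inside the cell to T cells. Cytosolic proteins are cut by the proteasome, pumped into the endoplasmic reticulum by the TAP transporter and loaded onto a heavy chain paired with beta-2 microglobulin. Class II molecules carry peptides from endosomes, with the invariant chain Cd74 filling their groove until H2-DM exchanges it. Interferon-gamma acts through its receptor and the kinases Jak1 and Jak2 to raise Irf1, which together with Nlrc5 for class I and Ciita for class II controls much of the programme, and it also induces the guanylate-binding proteins and immunity-related GTPases that attack vacuoles of intracellular pathogens.

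Total counts ran from 12130633 to 40187404 in the inducible CALM-AF10 libraries, where off replicate 3 was the shallowest, and from 11743388 to 13764632 in the Jak1 libraries. The MLL-AF10 and MLL-AF9 tables hold normalized values, so their depth is unknown. Neutrophil precursor markers were high throughout, and the sum of Mpo, Elane, Prtn3 and Ctsg reached 215000 to 283000 scaled counts in inducible CALM-AF10 cells. The T cell markers Cd3e, Cd3g and Cd8a and the B cell markers Ms4a1 and Pax5 are listed at 0 in every library of 3 tables and at 0.01 FPKM in every MLL-AF9 library. Not all lymphoid markers were absent. With CALM-AF10 on and off, the T cell marker Lck averaged 226.1 and 178.2 scaled counts and the B cell marker Cd79b 149.4 and 137.9. Cd79b averaged 89.02 floxed and 79.79 null scaled counts in the Jak1 libraries. In bulk RNA, fewer cells of a type and less RNA per cell cannot be told apart.

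Jak1 itself, counted over the whole gene, had 2451, 2443 and 2480 scaled counts (reads scaled to a common library size) in the floxed libraries and 2073, 1919 and 1933 in the null libraries. It was lower in each null library by 0.32 on the log2 scale (SE 0.04, adjusted p = 2.00e-08), and which exons the deletion removed is not stated in the labels. A gene was called at a Benjamini-Hochberg adjusted p under 0.05 over all genes tested in its table. The number of members called differed between the comparisons, as did the share of all genes called. In the Jak1 comparison, 15 members rose and 10 fell among 34 that passed the filter on low counts, where 55.7% of all genes tested were called (27.4% higher and 28.3% lower). Gbp4 and Gbp9, among the 10, passed that filter through the floxed libraries, where they are high. After CALM-AF10 was switched off, 1 of 38 tested members was called, lower, against 5.24% of all genes (2.13% higher and 3.11% lower). With DOX in MLL-AF10 cells, 1 of 31 tested members was higher and 7 were lower, against 19.8% of all genes (10.6% higher and 9.17% lower). With DOX in MLL-AF9 cells, 4 of 37 tested members were higher and 2 lower, against 11.8% of all genes (7.23% higher and 4.54% lower). The median log2 difference over the tested members was 0.08, -0.04, -0.03 and 0.10 in that order, beside 0.01, -0.00, 0.00 and -0.02 over all genes tested.

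**Figure D1:**
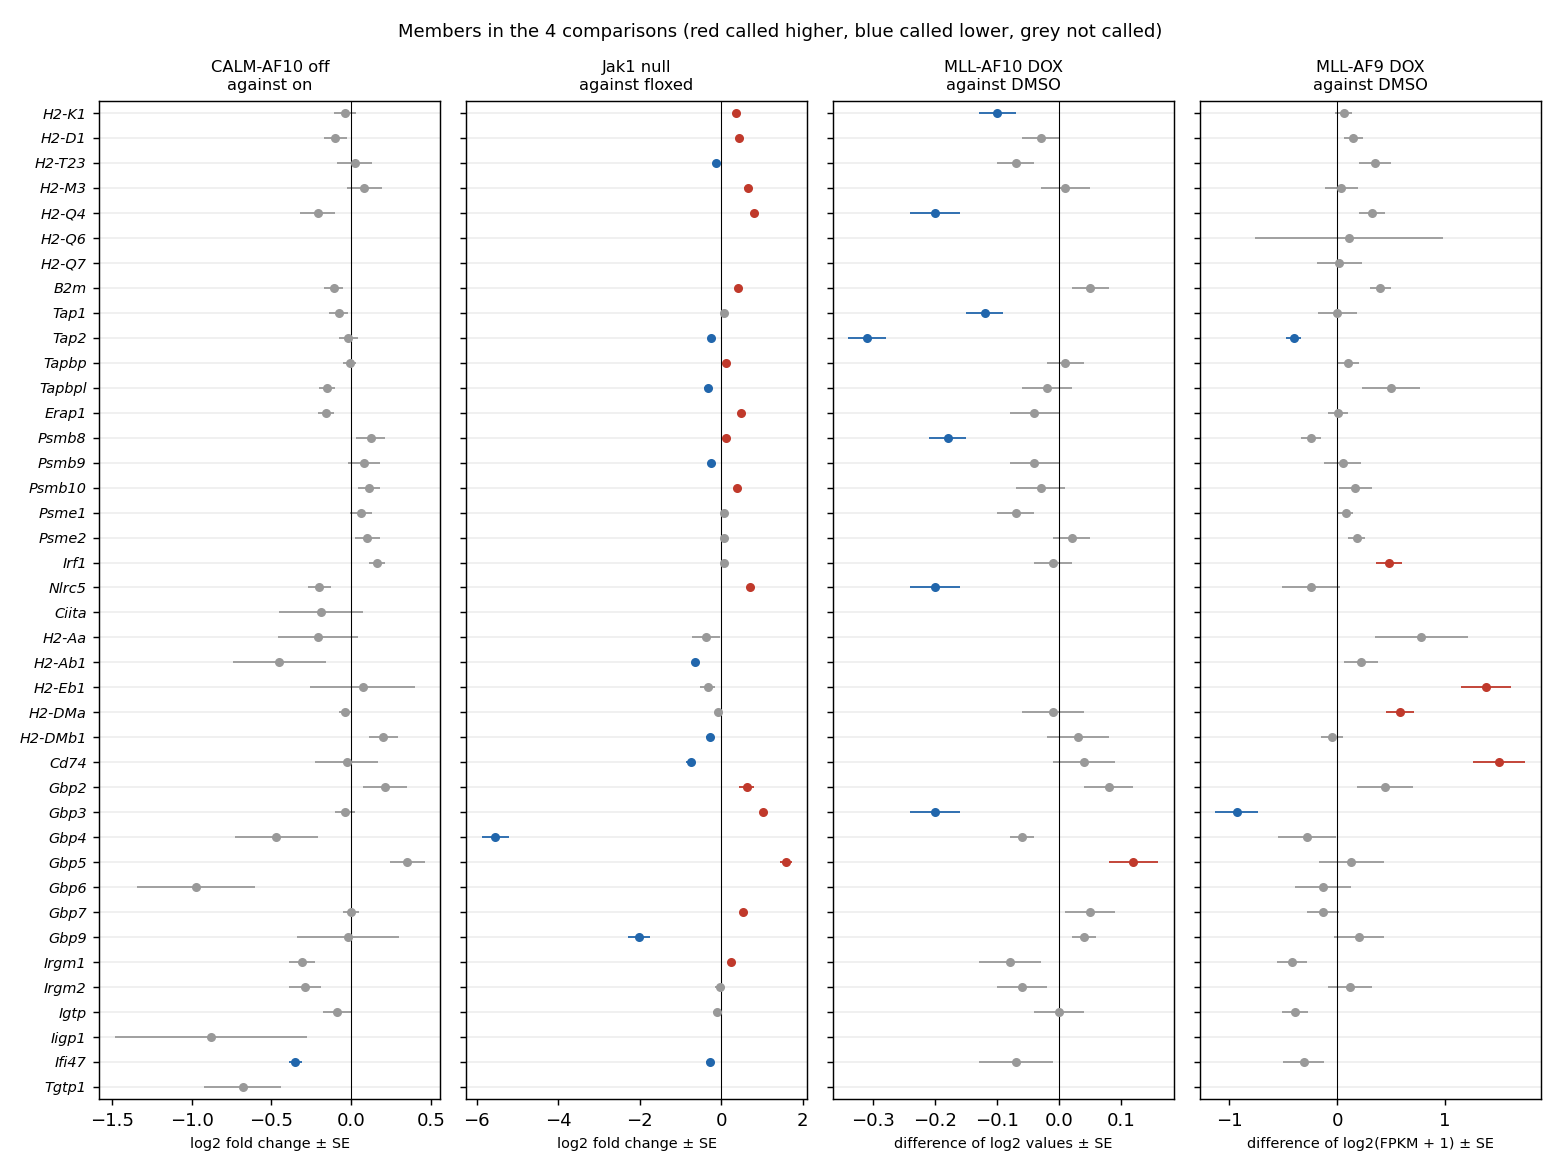
Difference of each member in the 4 comparisons, with the log2 difference on the horizontal axis (point) and its standard error (line); each panel has its own scale. Gbp4 at -5.55 in the Jak1 null cells lies far from the other members, and the MLL-AF10 differences all lie between -0.31 and 0.12. Members that did not pass the filter on low values have no point.

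Levels per length were compared among members in the control libraries, as RPKM (reads per kilobase of exon at a common depth) computed from the counts of both CALM-AF10 tables and as FPKM, the deposited per-length unit, in MLL-AF9. B2m ranked 1 in each of the 3 tables, at 1334 ± 97.1 (SD, n = 3) in CALM-AF10 on, 384.3 ± 9.9 in Jak1 floxed and 1211 ± 78.2 in MLL-AF9 DMSO. H2-K1 followed at 313.4 ± 20.5 and 290.1 ± 7.49 in the CALM-AF10 tables. In MLL-AF9, H2-D1 at 518.2 ± 37.9 FPKM and H2-K1 at 512.5 ± 19.2 FPKM differed by less than their spread. At the other end, Ciita stood at 0.315 ± 0.0858 in CALM-AF10 on cells, while Cd74 stood at 53.5 ± 10.9 and H2-DMa at 44.9 ± 1.13. H2-Ab1, which ranked 10 at 47.5 ± 0.258 in Jak1 floxed cells, was only 5.22 ± 1.02 in CALM-AF10 on cells. Its partner H2-Aa was 0.64 ± 0.189 in the floxed cells, so the alpha and beta chain transcripts of one class II molecule differed widely there. The tables were counted separately, so levels set across them may also differ by the counting.

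**Figure D2:**
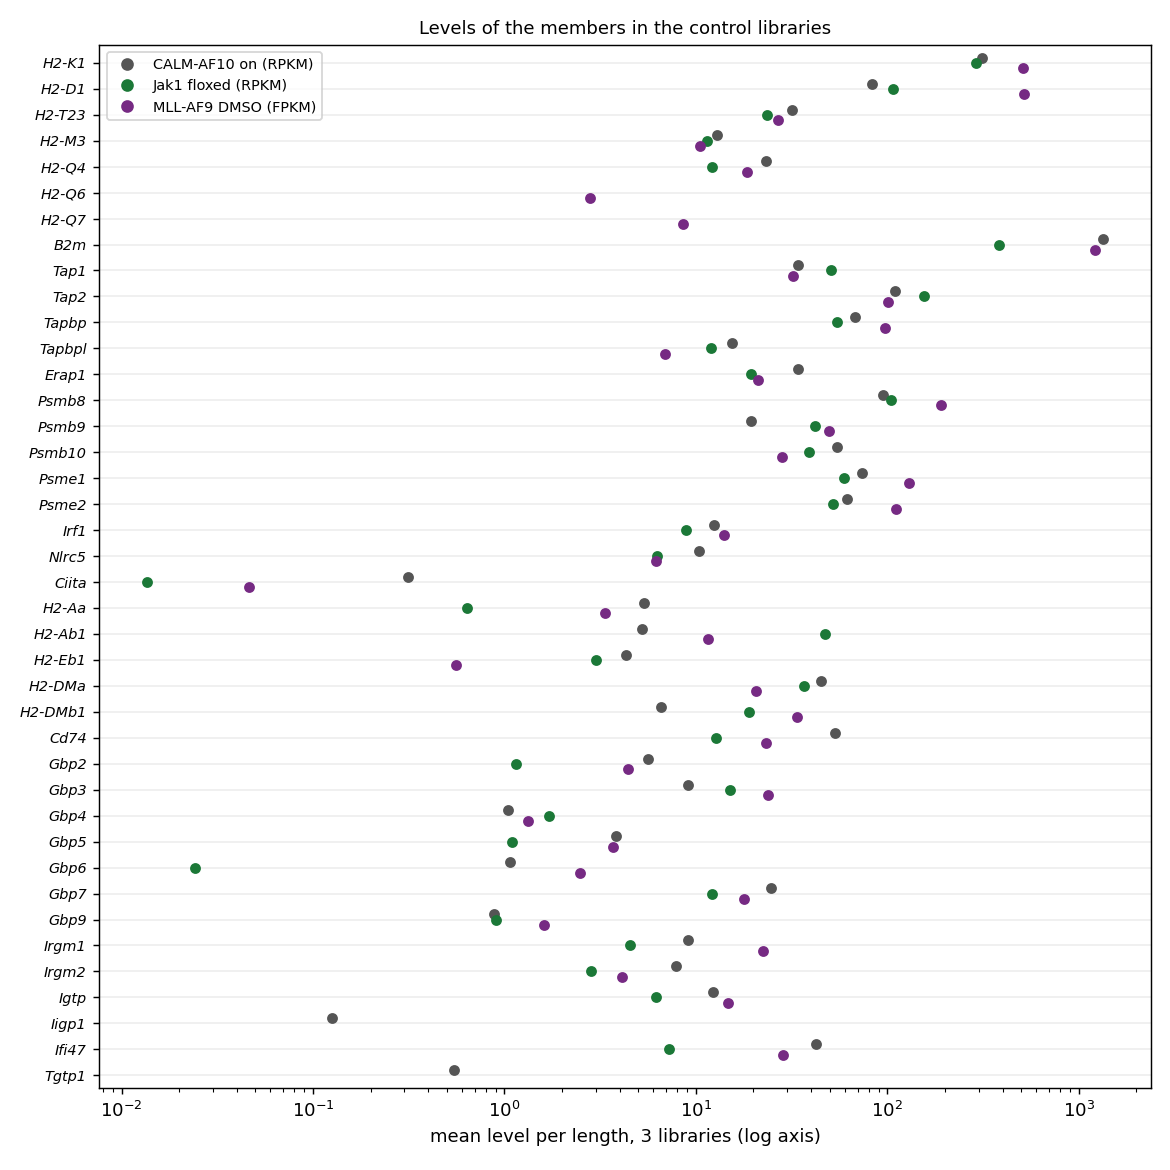
Mean level per length of each member in the control libraries of 3 tables (3 libraries each), on a log axis. B2m is the highest point in each table. Means at or under 0.01, which is also the lowest FPKM the MLL-AF9 table holds, have no point.

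Of the tested class I chains, all but 1 were called higher in Jak1 null cells, and none was called higher in a fusion model. Differences in MLL-AF9 reached 0.40 (B2m) without a call. In the Jak1 comparison 5 of 6 tested chains were higher and 1, H2-T23, was lower, with a median log2 fold change of 0.42. Of all genes tested there, 27.4% were called higher and 28.3% lower. H2-K1, a classical heavy chain that presents peptides to CD8 T cells, had 9640, 9239 and 9656 scaled counts in the floxed libraries and 12170, 12610 and 12180 in the null libraries. The groups did not overlap, and the log2 fold change was 0.37 ± 0.03 (SE; adjusted p = 5.13e-12). H2-D1, the other classical heavy chain here, had 3847, 3380 and 3227 floxed and 4548, 4882 and 4765 null counts, a change of 0.44 ± 0.04 (adjusted p = 3.32e-10). B2m, the light chain, went from 4232, 4039 and 4194 to 5526, 5561 and 5432 counts, a change of 0.41 ± 0.03 (adjusted p = 1.91e-12).

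Among the nonclassical chains, H2-Q4 had the largest rise in Jak1 null cells, from 383.9, 434.3 and 406.9 to 702.2, 693.5 and 761.1 counts (log2 fold change 0.81 ± 0.06, adjusted p = 2.52e-13). Every null library exceeded every floxed library. H2-M3, which presents formylated peptides, rose by 0.65 ± 0.08 (adjusted p = 7.31e-08). H2-T23, which encodes Qa-1 and is read by natural killer cells, fell by 0.13 on the log2 scale (SE 0.05, adjusted p = 0.0231), a call lost with DESeq2 and without floxed replicate 2, null replicate 1 or null replicate 2. The H2 heavy chains share sequence, and 7.29% of the 50-base windows of H2-K1, 12.8% of H2-D1, 14.8% of H2-T23 and 17.3% of H2-Q4 also occur in transcripts of another gene, so their counts are uncertain where reads could be split. H2-Q6 and H2-Q7, 22.7% and 24.1% shared, are listed at 0 in all libraries of 3 tables and reached 2.80 and 8.59 FPKM on average in MLL-AF9 DMSO.

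In the fusion models no class I chain was called with CALM-AF10 off or in MLL-AF9. With CALM-AF10 on, H2-K1 had 21550, 24450 and 24070 scaled counts, and off it had 20630, 22570 and 25020, so the groups overlapped (log2 fold change -0.04 ± 0.07, adjusted p = 0.785). B2m had 30050, 33580 and 34760 on and 28510, 31810 and 30730 off, again overlapping (-0.11 ± 0.06, adjusted p = 0.337). In MLL-AF9, B2m had 1198, 1139 and 1294 FPKM with DMSO and 1617, 1500 and 1667 with DOX, without overlap. That difference of 0.40 ± 0.10 missed the threshold at adjusted p = 0.0502 and passed it with a pseudocount of 0.1, with a minimum mean of 5 FPKM and with median-ratio scaling. H2-K1 in MLL-AF9 had 531.5, 493.2 and 512.9 FPKM against 531.3, 574.3 and 503.6, which overlapped (0.06 ± 0.08, adjusted p = 0.669).

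MLL-AF10 cells gave small decreases on DOX. H2-K1 was at 11.43, 11.5 and 11.46 deposited log2 units with DMSO and at 11.35, 11.38 and 11.37 with DOX. All DOX libraries were lower, by 0.10 on average (adjusted p = 0.0339), and the call was lost without filtering low values, after quantile normalization and when any of 5 of the 6 libraries was left out. H2-Q4 went from 7.174, 7.312 and 7.267 to 7.097, 7.015 and 7.043, lower in every DOX library (-0.20 ± 0.04, adjusted p = 0.00285), a call lost without filtering low values. B2m was at 12.41, 12.45 and 12.44 with DMSO and at 12.5, 12.45 and 12.51 with DOX, and was not called (0.05 ± 0.03, adjusted p = 0.239). No label gives the transformation of the MLL-AF10 values, so these differences are not read as fold changes.

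Of the 5 genes of peptide transport, loading and trimming, 2 were called higher and 2 lower in Jak1 null cells. Of all genes tested there, 27.4% were called higher and 28.3% lower, so the counts are not read as a result about the group. Tap2, a TAP transporter subunit, fell in 3 of the 4 comparisons. In Jak1 null cells it went from 7446, 7385 and 7316 to 6126, 6286 and 6149 scaled counts (-0.25 ± 0.03, adjusted p = 1.25e-08). In MLL-AF10 it went from 10.1, 10.15 and 10.18 log2 units with DMSO to 9.794, 9.845 and 9.872 with DOX (-0.31 ± 0.03, adjusted p = 1.76e-05). In MLL-AF9 it went from 99.84, 102.1 and 101.8 to 72.02, 82.12 and 75.44 FPKM (-0.40 ± 0.07, adjusted p = 0.0147), a call lost without DMSO replicate 2 or 3. The groups were apart in all 3 comparisons, while with CALM-AF10 off Tap2 counts of 11060, 11300 and 12980 overlapped the on counts of 11710, 11960 and 12030. Antisense genes cover 18.5% of the exon bases of Tap2 in the mm9 annotation (chromosome 17, 34340472 to 34353266), and whether counting used strand is not given, so reads of the 2 strands cannot be told apart.

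Tap1, the partner subunit, did not follow Tap2 in Jak1 null cells. Its counts were 3366, 3603 and 3462 floxed and 3609, 3635 and 3645 null, and the change of 0.06 ± 0.03 was not called (adjusted p = 0.114). In MLL-AF10 it was called lower, from 9.172, 9.102 and 9.087 to 9.009, 8.997 and 8.99 log2 units (-0.12 ± 0.03, adjusted p = 0.0185), a call lost without filtering low values and without DOX replicate 2 or 3. In MLL-AF9 its 26.77, 28.86 and 40.84 FPKM with DMSO overlapped the 28.01, 37.44 and 30.18 with DOX. With CALM-AF10 on it had 4962, 5476 and 5542 counts, overlapping 4810, 4906 and 5394 off.

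Erap1, the aminopeptidase that trims peptides in the endoplasmic reticulum, rose in Jak1 null cells from 1124, 1152 and 1145 to 1650, 1592 and 1527 counts (0.48 ± 0.04, adjusted p = 4.28e-11). The peptide editors Tapbp and Tapbpl moved apart, with Tapbp at 0.12 ± 0.04 (adjusted p = 0.00713) and Tapbpl at -0.33 ± 0.08 (adjusted p = 0.000511). The Tapbp call was lost without floxed replicate 1. With CALM-AF10 off, Erap1 was lower in all 3 off libraries (4301, 4018 and 3944 against 4632, 4591 and 4544) but was not called at adjusted p = 0.071.

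Of the 5 immunoproteasome members, 2 rose and 1 fell in Jak1 null cells, where 27.4% of all genes tested were called higher and 28.3% lower. Psmb8, a catalytic subunit that replaces its constitutive counterpart on interferon exposure, had 3577, 3616 and 3576 floxed and 3927, 3798 and 3869 null counts, a rise of 0.11 ± 0.03 (adjusted p = 0.005). Psmb10, another such subunit, rose more, by 0.40 ± 0.05 (adjusted p = 3.01e-08), and Psmb9 fell by 0.24 (SE 0.04, adjusted p = 1.07e-05). Psmb9 overlaps Tap1 on the opposite strand over 5.79% of its exon bases. Psme1 and Psme2, the activator caps, were not called in any comparison, and 54.9% of the windows of Psme2 recur in its pseudogene Psme2b-ps.

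Psmb8 was the only immunoproteasome member called in a fusion model. In MLL-AF10 it went from 9.975, 10.02 and 10.02 to 9.819, 9.844 and 9.803 log2 units, lower in every DOX library (-0.18 ± 0.03, adjusted p = 0.000657). In MLL-AF9 it was also lower in every DOX library, at 160.1, 177.7 and 144.3 FPKM against 199.9, 179.7 and 189.8, without reaching the threshold (-0.24 ± 0.09, adjusted p = 0.148). With CALM-AF10 off its counts were 7262, 7520 and 9511 against 7517, 7425 and 7324 on, which overlapped.

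Of the 3 regulators, Nlrc5 changed in Jak1 null and MLL-AF10 cells, and Irf1 in MLL-AF9 cells. Nlrc5, the transactivator of class I promoters, had 580.6, 587.1 and 553.2 floxed and 967.6, 941.7 and 917 null counts, a rise of 0.71 ± 0.05 (adjusted p = 1.02e-13) with no overlap. In MLL-AF10 it was at 8.01, 8.088 and 8.136 log2 units with DMSO and 7.896, 7.832 and 7.897 with DOX (-0.20 ± 0.04, adjusted p = 0.00176), a call lost without filtering low values. With CALM-AF10 off its 1769, 1961 and 1898 counts overlapped the 1923, 2337 and 2210 on counts (-0.20 ± 0.07, adjusted p = 0.151). In MLL-AF9 it was at 5.364, 8.213 and 5.111 FPKM with DMSO and 3.204, 6.486 and 5.915 with DOX, which overlapped.

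Irf1, the interferon-regulatory factor that acts early after interferon-gamma, had 13.52, 16.25 and 12.28 FPKM with DMSO in MLL-AF9 and 19.54, 21.05 and 18.77 with DOX. Every DOX library was higher (0.48 ± 0.12, adjusted p = 0.0469), and the call was lost in 7 of the alternatives, among them each of 5 libraries left out. In Jak1 null cells Irf1 was not called, with 471.6, 435.3 and 432.4 floxed and 488.9, 453.1 and 476.4 null counts (0.08 ± 0.06, adjusted p = 0.234). With CALM-AF10 off it had 1529, 1547 and 1657 counts against 1372, 1375 and 1469, higher without overlap but not called (0.16 ± 0.05, adjusted p = 0.119). In MLL-AF10 its 7.962, 8.027 and 8.017 log2 units with DMSO overlapped the 8.007, 7.987 and 7.992 with DOX.

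Ciita, the master regulator of class II genes, was barely detected. Scaled counts were 38.64, 67.88 and 61.23 with CALM-AF10 on and 38.59, 50.66 and 68.73 off, which overlapped (-0.19 ± 0.26, adjusted p = 0.71). It did not pass the filters elsewhere, with 0 to 2.119 scaled counts in the Jak1 libraries, 0.7263 to 0.7473 log2 units in MLL-AF10 and 0.01 to 0.2719 FPKM in MLL-AF9.

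In the class II path, 3 of 6 members fell in Jak1 null cells, where 28.3% of all genes tested were lower, and 3 of 6 rose with DOX in MLL-AF9 cells, where 7.23% were higher. One of the 3 in MLL-AF9, H2-Eb1, passed the filter through the DOX libraries, where it is high, so it could only be called higher. Cd74 was the member called in both comparisons, in opposite directions, and the difference between the comparisons was not tested. Cd74, the invariant chain, had 206.4, 225.9 and 249 floxed and 120.4, 134 and 149.1 null counts, lower in each null library (-0.75 ± 0.10, adjusted p = 2.38e-07). In MLL-AF9 it had 25.61, 14.53 and 29.63 FPKM with DMSO and 73.81, 56.09 and 65.5 with DOX, higher in each DOX library (1.50 ± 0.24, adjusted p = 0.00918). With CALM-AF10 on it had 1646, 2382 and 2438 counts and off 1464, 2441 and 2534, so replicate 1 was low in both groups and no difference was called. In MLL-AF10 it was at 7.813, 7.995 and 8.046 log2 units with DMSO and 8.04, 7.941 and 7.982 with DOX, overlapping.

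H2-Ab1, the I-A beta chain, went from 976.2, 981.2 and 987.7 to 635.9, 605.8 and 643 counts in Jak1 null cells (-0.64 ± 0.05, adjusted p = 6.83e-13), and H2-DMb1 fell by 0.28 (SE 0.08, adjusted p = 0.00262), with 27.1% of its windows also found in H2-DMb2. H2-Eb1, the I-E beta chain, was at 0.5542, 0.3021 and 0.8103 FPKM with DMSO in MLL-AF9 and at 2.762, 3.05 and 3.231 with DOX (1.38 ± 0.23 on the log2(FPKM + 1) scale, adjusted p = 0.0102). H2-DMa, a chain of the peptide exchanger, went from 24.01, 17.04 and 20.41 to 32.47, 30.05 and 29.84 FPKM (0.58 ± 0.13, adjusted p = 0.0293), a call lost in each of 5 leave-one-out fits. H2-Ab1 in MLL-AF9 was not called (0.22 ± 0.16, adjusted p = 0.429). H2-Aa, H2-Ab1 and H2-Eb1 did not pass the filter in MLL-AF10, at 0.8093 to 2.856 log2 units.

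Markers of other myeloid cells also differed between groups. In MLL-AF9 the 7 macrophage markers summed to 136 to 168 FPKM with DMSO and 233 to 245 with DOX, with none at the floor and Adgre1 and Csf1r, 2 of 7 tested, called higher. The 8 dendritic cell markers summed to 8.61 to 16.3 and 24.9 to 29.7 FPKM, with Zbtb46 and Cd209a at the floor and Itgax, the 1 tested, called higher. Of all genes tested in MLL-AF9, 7.23% were called higher.

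In the Jak1 libraries the macrophage markers summed to 2230 to 2450 floxed and 1950 to 2010 null counts. Of 4 tested, 3 were called higher and 1 lower, where 27.4% of all genes tested were called higher and 28.3% lower. C1qb, 1 of the 3, passed the filter on low counts through the null libraries, where it is high, so it could only be called higher. Adgre1 fell from 2220 ± 110 to 1513 ± 17.1 counts (SD, n = 3), while Csf1r rose from 96.2 ± 1.18 to 354.1 ± 5.6, Mrc1 from 25.6 ± 9.21 to 69.6 ± 12.4 and C1qb from 4.92 ± 3.5 to 14.5 ± 1.25. The dendritic cell sum went from 574 to 684 to 1130 to 1260 counts. Of its 3 tested markers Flt3, also a progenitor gene, rose from 101.8 ± 19.9 to 675.7 ± 32.2, and Itgax (-0.01 ± 0.07) and Clec9a (-0.31 ± 0.42) were not called.

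With CALM-AF10 off the dendritic cell markers summed to 600 to 648 counts against 843 to 891 on. Of the 3 tested, only Flt3, also a progenitor gene, was called, lower, where 3.11% of all genes tested were called lower. Flt3 averaged 373.4 ± 49.1 counts off and 556.1 ± 72.9 on (SD, n = 3), and Itgax and Ccr7 overlapped. In MLL-AF10 the mean of the macrophage markers was 6.04 to 6.08 log2 units with DOX against 5.9 to 5.91 with DMSO. The neutrophil precursor markers summed to 54100 to 56900 floxed and 78400 to 81400 null counts, and to 215000 to 227000 on and 270000 to 283000 off counts. Their mean in MLL-AF10 was 12.8 to 13 log2 units with DMSO and 13.1 to 13.2 with DOX. There 3 of 4 were called higher, against 10.6% of all genes tested. In MLL-AF9 the neutrophil precursor markers summed to 8330 to 9300 FPKM with DMSO and 6800 to 7580 with DOX. There 2 of 4 were called lower, against 4.54% of all genes tested. The part of these markers in the results for the members was not tested.

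**Figure D3:**
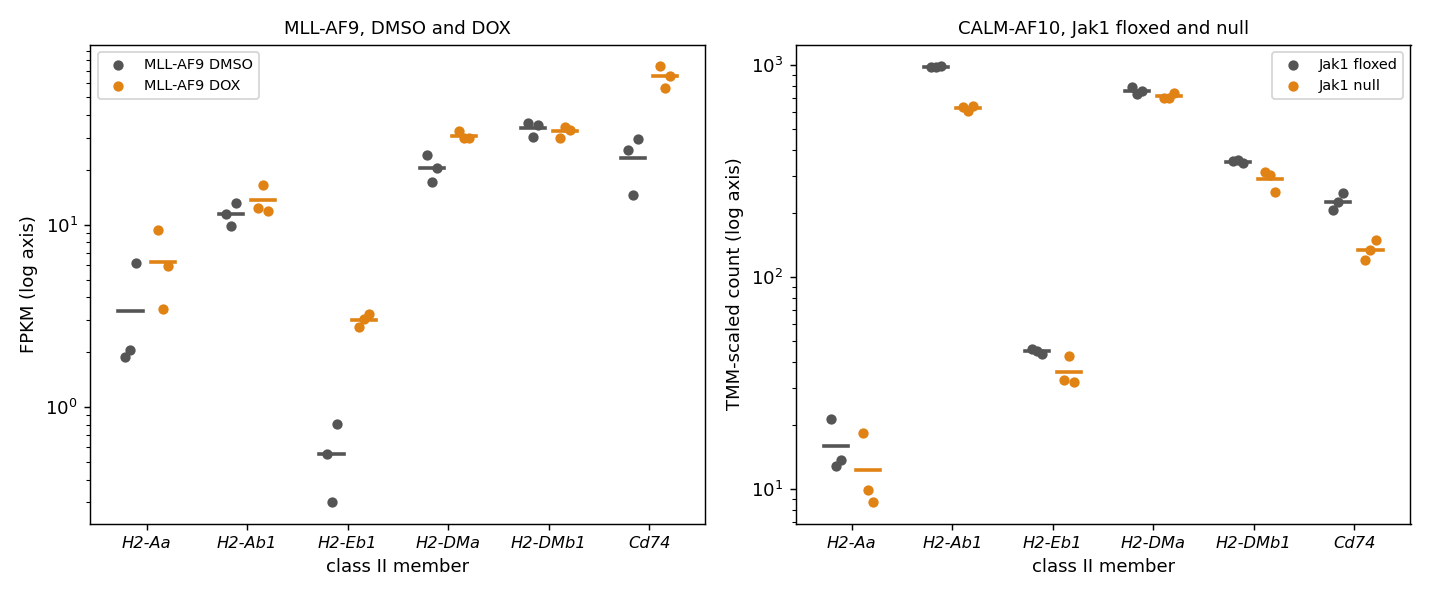
Class II members in every library of the MLL-AF9 comparison (left, FPKM) and the Jak1 comparison (right, scaled counts), on log axes, with a bar at each group mean of 3 libraries. Cd74 with DOX lies between 56.09 and 73.81 FPKM, above all DMSO libraries, and in the Jak1 null libraries it lies between 120.4 and 149.1 counts, below all floxed libraries.

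The guanylate-binding proteins gave the largest changes of the 40 genes between Jak1 null and floxed cells. All 4 members on chromosome 3 rose and both tested members on chromosome 5 fell, a grouping made after the values were seen. The tested members on chromosome 5, Gbp4 and Gbp9, passed the filter on low counts through the floxed libraries, where they are high. They could therefore only be called lower, and their direction is no support for the grouping. In mm9 the chromosome 3 genes lie between 142159864, the start of Gbp5, and 142300972, the end of Gbp2, on the plus strand. The chromosome 5 members lie between 105507413, the start of Gbp9, and 105722718, the end of Gbp6, on the minus strand.

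On chromosome 3, Gbp3 had 579.5, 615.4 and 644.3 floxed and 1243, 1226 and 1308 null counts (1.04 ± 0.05, adjusted p = 2.84e-17). Gbp5, which promotes inflammasome assembly, went from 57.74, 59.44 and 49.81 to 203.1, 152.7 and 150.1 counts (1.59 ± 0.14, adjusted p = 5.68e-11). Gbp7 went from 803, 855 and 873.2 to 1226, 1272 and 1197 (0.54 ± 0.05, adjusted p = 2.54e-11). Gbp2, which coats vacuoles of pathogens, went from 36.36, 35.66 and 37.09 to 54.1, 51.22 and 63.91 (0.63 ± 0.18, adjusted p = 0.00401). Floxed and null libraries were apart for each of the 4 genes.

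On chromosome 5, Gbp4 was nearly lost: the raw counts were 73, 123 and 98 in the floxed libraries and 1, 4 and 1 in the null libraries. The floxed level was 49.9 times the null level (exact 95% interval 22.7 to 137, counting error only), and Gbp4 passed the filter through the floxed libraries alone (edgeR log2 fold change -5.55, adjusted p = 6.58e-15). Gbp9 had raw counts of 32, 56 and 36 floxed and 9, 10 and 12 null, a ratio of 4.07 (2.73 to 6.25), and was called lower (-2.01 ± 0.27, adjusted p = 2.46e-07). Gbp9 too passed the filter through the floxed libraries, so it could only be called lower. Gbp6 had 4 raw counts in the floxed and 1 in the null libraries and was not tested. Outside the 40 genes, the neighbours Gbp8 and Gbp11 on chromosome 5 were also lower. Gbp8 had 109, 138 and 108 raw counts against 15, 24 and 25. Gbp11 had 15, 32 and 25 against 0 in each null library, at least 24.4-fold lower at a floor of 3 counts over the group. Gbp11 passed the filter through the floxed libraries alone, so it could only be called lower. Of its windows 34.5% recur in another gene, most often Gbp8, as do 18.3% of those of Gbp8, most often in Gbp4. Some reads could be split among these genes, since 12.2% of the windows of Gbp4 and 9.07% of Gbp9 recur in another gene, most often Gbp8, as do 80% of Gbp6, most often in Gbp10.

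**Figure D4:**
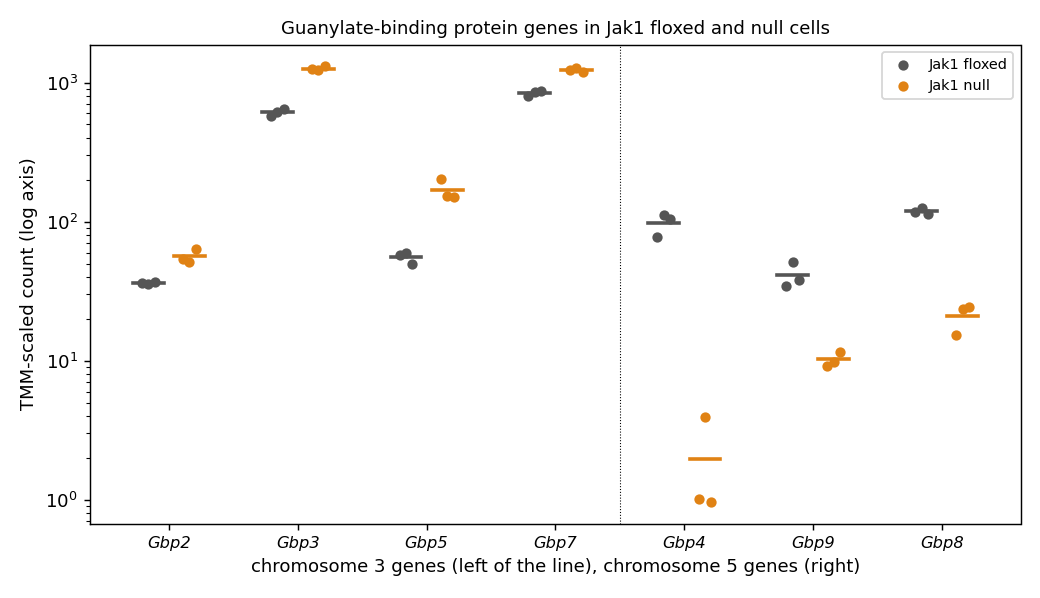
Scaled counts of guanylate-binding protein genes in every Jak1 floxed and Jak1 null library (log axis), with a bar at each group mean of 3 libraries. The chromosome 3 genes are higher in the null libraries, and the chromosome 5 genes are lower, Gbp4 reaching 0.9683 to 3.94. Gbp4 and Gbp9 passed the filter on low counts through the floxed libraries, so they could only be called lower.

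The promoters of the 4 chromosome 3 genes that rose are shown because these genes moved together. Each is the 250 bases before the start in RefSeq on GRCm38.p6, plus strand, at chr3:142620413-142620662 for Gbp2, chr3:142559794-142560043 for Gbp3, chr3:142496684-142496933 for Gbp5 and chr3:142530086-142530335 for Gbp7. Capitals mark TTCNNNGAA, the letters of a gamma-activated site, and GAAANNGAA, the letters of an interferon-stimulated response element, searched on both strands.
Gbp2: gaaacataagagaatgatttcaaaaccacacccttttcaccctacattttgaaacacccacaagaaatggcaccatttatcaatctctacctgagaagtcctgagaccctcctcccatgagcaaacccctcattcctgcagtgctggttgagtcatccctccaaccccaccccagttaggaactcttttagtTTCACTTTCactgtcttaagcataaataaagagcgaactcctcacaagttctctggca
Gbp3: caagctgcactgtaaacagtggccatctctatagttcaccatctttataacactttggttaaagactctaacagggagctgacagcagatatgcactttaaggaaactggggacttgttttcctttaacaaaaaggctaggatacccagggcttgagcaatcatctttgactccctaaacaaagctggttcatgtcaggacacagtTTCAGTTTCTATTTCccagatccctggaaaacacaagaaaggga
Gbp5: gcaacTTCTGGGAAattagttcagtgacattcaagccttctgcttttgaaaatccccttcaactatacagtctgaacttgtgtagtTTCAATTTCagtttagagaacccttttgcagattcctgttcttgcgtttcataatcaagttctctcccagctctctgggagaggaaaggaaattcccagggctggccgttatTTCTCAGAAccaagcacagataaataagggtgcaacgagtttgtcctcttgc
Gbp7: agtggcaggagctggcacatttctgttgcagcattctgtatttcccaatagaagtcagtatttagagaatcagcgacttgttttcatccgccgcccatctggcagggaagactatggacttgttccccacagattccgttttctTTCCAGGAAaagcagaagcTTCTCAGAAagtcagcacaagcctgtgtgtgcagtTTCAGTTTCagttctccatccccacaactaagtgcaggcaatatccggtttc
Each holds GAAANNGAA, in Gbp3 as 2 overlapping matches, and Gbp5 and Gbp7 also hold TTCNNNGAA 2 times each. Of 30 members with a RefSeq promoter in the table, 11 held GAAANNGAA and 8 held TTCNNNGAA, whereas 7.13% and 7.02% of 32851 promoters did. Another 16 of the 30 held neither. The match is a description of the letters and not of a bound site. Promoters of the chromosome 5 members Gbp4, Gbp6 and Gbp9 were not analysed here.

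In the fusion models the guanylate-binding proteins changed in other ways. Gbp3 fell with DOX in both MLL models, from 8.135, 8.193 and 8.204 to 7.891, 8.051 and 7.988 log2 units in MLL-AF10 (-0.20 ± 0.04, adjusted p = 0.00328) and from 20.66, 25.85 and 25.31 to 8.441, 13.71 and 14.81 FPKM in MLL-AF9 (-0.93 ± 0.20, adjusted p = 0.027). DOX libraries were below all DMSO libraries in both, the MLL-AF10 call was lost without filtering low values, and the MLL-AF9 call was lost without any of the 3 DMSO replicates. Gbp5 in MLL-AF10 was called higher at 7.259, 7.34 and 7.352 against 7.19, 7.262 and 7.136 log2 units, but the groups overlapped and the adjusted p was 0.0486. It was lost without filtering, after quantile normalization and without any of 4 libraries.

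Gbp2 was called in no fusion model by the unpaired fits. It had 327.9, 412 and 472.7 counts with CALM-AF10 on and 401.4, 519.7 and 502.5 off, which overlapped, and 5.232, 4.524 and 3.429 against 8.992, 4.192 and 6.311 FPKM in MLL-AF9, which overlapped too. In MLL-AF10 it was at 6.047, 6.112 and 6.131 log2 units with DMSO and at 6.164, 6.142 and 6.235 with DOX, apart but not called (0.08 ± 0.04, adjusted p = 0.119). Same-numbered MLL-AF10 libraries deviated together, and with the replicate number as a block Gbp2 was called higher (adjusted p = 0.0481, with 0.0481 to 0.419 over its alternatives) and Gbp4 lower by 0.06 (adjusted p = 0.0423, with 0.037 to 0.414 over its alternatives). The remaining guanylate-binding proteins, at log2 differences of -0.97 (Gbp6) to 0.35 (Gbp5), were not called with CALM-AF10 off.

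Among the immunity-related GTPases, Ifi47 was the only member called when CALM-AF10 was switched off. It had 2800, 2739 and 2843 scaled counts on and 2253, 2190 and 2116 off, lower in each off library (-0.35 ± 0.04, adjusted p = 0.00264). In Jak1 null cells it was also called lower, at -0.28 ± 0.10 (adjusted p = 0.0151), from 239.5, 197.5 and 198.2 to 187.8, 163.5 and 170.4 counts, a call lost with DESeq2 and without floxed replicate 1 or null replicate 2. Median log2 fold change over the 6 immunity-related GTPases was -0.33 with CALM-AF10 off.

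Irgm1, a regulator that keeps the effector GTPases inactive on the cell's own membranes, had 1332, 1605 and 1593 counts with CALM-AF10 on and 1122, 1286 and 1275 off. The groups were apart but the change of -0.31 ± 0.08 was not called (adjusted p = 0.0658), although it passed with DESeq2, without filtering and without on replicate 1. In Jak1 null cells Irgm1 rose from 315.4, 341.1 and 337 to 407.3, 410.8 and 364.1 counts (0.25 ± 0.07, adjusted p = 0.00297). In MLL-AF9 it was lower in each DOX library, at 13.34, 18.17 and 18.92 against 22.88, 21.88 and 22.89 FPKM, and not called (adjusted p = 0.0958). In MLL-AF10 the 7.739, 7.637 and 7.536 log2 units with DMSO overlapped the 7.638, 7.549 and 7.477 with DOX.

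Igtp, a second such regulator also known as Irgm3, was called in no comparison. Its counts were 625.6, 750.2 and 758.9 with CALM-AF10 on and 629.1, 690.4 and 699.2 off, and 178.6, 145.4 and 149.4 floxed and 136.8, 149.7 and 154 null, with overlap in both. In MLL-AF9 it was apart at 13.62, 16.55 and 14.03 FPKM with DMSO and 11.13, 9.827 and 11.93 with DOX, with adjusted p = 0.0835. In MLL-AF10 it overlapped, at 6.219, 6.182 and 6.184 against 6.192, 6.143 and 6.263 log2 units. Irgm2 was called in none either.

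Iigp1 and Tgtp1, effector GTPases that disrupt vacuoles, were near the detection limit. Tgtp1 had 46.99 to 52.22 scaled counts with CALM-AF10 on and 14.22 to 35.65 off, apart but not called (-0.68 ± 0.24, adjusted p = 0.146), and 85.3% of its windows recur in another gene, most often Tgtp2, so its counts are uncertain. Tgtp2, not among the 40, was called lower there (-0.72 ± 0.18, adjusted p = 0.0498). Iigp1 had 2.316 to 18.96 scaled counts in that table, and both genes were listed at 0.01 FPKM in every MLL-AF9 library and at no more than 1.069 scaled counts in the Jak1 table.

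Other genes of the pathway were counted from lists of function. Their counts stand beside the shares of all genes tested: 27.4% higher and 28.3% lower in Jak1 null cells, 2.13% and 3.11% with CALM-AF10 off, 10.6% and 9.17% in MLL-AF10, and 7.23% and 4.54% in MLL-AF9. The Jak1 counts of several lists lie near those shares and are not read as results about the lists. In the receptor signalling list of 10 genes, 2 rose and 6 fell in Jak1 null cells. Irf8, an interferon-regulatory factor of myeloid cells, rose from 822 ± 23.1 to 1797 ± 109 counts (SD, n = 3; 1.13 ± 0.05, adjusted p = 7.31e-19), and the receptor chain Ifngr1 rose by 0.40 ± 0.03 (adjusted p = 1.18e-12). The phosphatase Ptpn2 fell by 0.40 (SE 0.04, adjusted p = 6.32e-09). In each fusion model the kinase gene Jak2 and the feedback inhibitor Socs3 were called higher: Jak2 by 0.24 ± 0.04 with CALM-AF10 off, 0.36 ± 0.03 in MLL-AF10 and 0.88 ± 0.11 in MLL-AF9, and Socs3 by 0.39 ± 0.07, 0.21 ± 0.04 and 1.50 ± 0.12. Altogether 2 of 10 in that list were higher and none lower with CALM-AF10 off, 4 higher and none lower in MLL-AF10, and 3 higher and 1 lower, Ifngr1, in MLL-AF9.

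Among 9 other class II pathway genes, 2 rose and 5 fell of 9 tested in Jak1 null cells, and 4 of 7 tested rose in MLL-AF9. H2-Eb2, 1 of the 5 that fell, passed the filter on low counts through the floxed libraries, where it is high. H2-Ob and H2-Oa, chains of the inhibitor of peptide exchange, fell by 1.14 (SE 0.10, adjusted p = 2.68e-11) and 0.89 (SE 0.10, adjusted p = 1.54e-08) in Jak1 null cells. The proteases Ctss and Lgmn and the reductase Ifi30 rose with DOX in MLL-AF9, by 0.95 ± 0.12, 1.03 ± 0.14 and 0.74 ± 0.09, as did Ctsl by 0.64 ± 0.07. In MLL-AF10, 3 of 7 tested rose and 1, H2-Ob, fell by 0.32 (SE 0.04, adjusted p = 7.70e-05). No gene of this list was called with CALM-AF10 off.

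The constitutive proteasome counterparts were mostly not called. Of 16, 3 rose and 2 fell in Jak1 null cells, 1 fell in each MLL model and none was called with CALM-AF10 off. Of 7 tested other class I genes, 3 rose and 2 fell in Jak1 null cells. Cd1d1, which presents lipids, rose by 0.75 ± 0.07 (adjusted p = 3.51e-11), and H2-Q10 had 61 raw counts in the floxed and 3 in the null libraries, a ratio of 20.7 (6.76 to 103), so that it passed the filter through the floxed libraries and could only be called lower. No other class I gene was called in the fusion models. Of the enhanceosome partners at these promoters, 3 of 7 rose in Jak1 null cells, Nfya by 0.22 ± 0.04 (adjusted p = 5.22e-05). In MLL-AF9 1 of the 7, Nfyc, fell by 0.66 (SE 0.13, adjusted p = 0.0202), and none was called in the other 2 fusion models.

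Of 6 folding factors of the endoplasmic reticulum, 3 rose and 2 fell in Jak1 null cells, where Pdia3, a disulfide isomerase of the loading complex, fell by 0.41 (SE 0.03, adjusted p = 1.36e-12). Calr, which encodes calreticulin, fell by 0.39 in MLL-AF9 (SE 0.08, adjusted p = 0.0268). Of other interferon-inducible GTPases, 2 of 4 tested fell in Jak1 null cells, Gbp8 and Gbp11, of which Gbp11 was tested through the floxed libraries alone, 1 of 6 tested fell in MLL-AF10, Gbp11 by 0.10 (SE 0.02), and 1 of 10 tested fell with CALM-AF10 off, Tgtp2. Of other interferon-gamma targets, 2 rose and 5 fell of 10 tested in Jak1 null cells, with Irf7 at -1.53 ± 0.19 (adjusted p = 3.49e-08) and Parp14 at -0.55 ± 0.06 (adjusted p = 2.13e-08). Serpina3g, a serine protease inhibitor, was the member of that list called lower in all 4 comparisons, by 0.35 (SE 0.06) with CALM-AF10 off, 0.65 (SE 0.06) in Jak1 null cells, 0.62 (SE 0.07) in MLL-AF10 and 0.94 (SE 0.24) in MLL-AF9. In MLL-AF9 the checkpoint ligand Cd274 rose by 1.12 ± 0.18 (adjusted p = 0.00913) and the chemokine Cxcl10 fell by 1.42 (SE 0.26, adjusted p = 0.0133).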

How the data were processed

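RNA-seq of 24 libraries was analysed from 4 deposited gene tables. The inducible CALM-AF10 and Jak1 tables hold whole-number read counts per gene deposited by the authors, the latter although its file is named for FPKM. The MLL-AF10 table holds normalized values that the authors deposited on a log2 scale by an unstated transformation, and the MLL-AF9 table holds FPKM deposited by the authors with a lowest value of 0.01. Bowtie 0.12.2 and mm9 are named in the submitters' processing notes. Of the MLL-AF9 loci, however, 85.4% lay within 5000 bases of GRCm38.p6 starts and 4.98% of mm9 starts, so its build differs from the notes. RNA was polyA-selected except in MLL-AF9, where it was total RNA, per the labels.

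Counts were filtered (filterByExpr), TMM-normalized and tested with edgeR 4.0.16 quasi-likelihood in R 4.3.3. Log2 values with a mean of at least 3.32, and log2(FPKM + 1) of genes averaging 1 FPKM or more, were tested with limma 3.58.1 with a variance trend. Such fold changes understate those of low genes. Each table was fitted alone, and p-values were adjusted over all its genes. DESeq2 1.42.0, other scalings, filters and pseudocounts, a replicate block and leaving out each library were alternatives. Fits were tested on simulated data.

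Same-numbered MLL-AF10 libraries deviated together (correlations 0.40, 0.20 and 0.19), the only comparison with every pair over 0.1. The members and lists were chosen with earlier results of these data known. Values per library were printed for up to 12 called members a comparison, by adjusted p, whose groups did not overlap, and everywhere for 11 fixed genes. A sheet of selected genes was not used. Positions, exon lengths and windows of 50 bases came from the GENCODE annotation of mm9, and promoters from RefSeq. Intervals are exact and cover counting error only.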

Additional observations from a re-analysis of the deposited data

Results flagged for a closer look

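In 4 members every MLL-AF10 library moved one way with DOX and every MLL-AF9 library the opposite way. The share of all genes that do so was not counted, so the 4 are not read as a result about the members. The difference between the models was not tested, since the tables are on different scales, and none of the 4 was called in both. H2-D1 was at -0.03 in MLL-AF10 and 0.15 in MLL-AF9, H2-Q4 at -0.20 and 0.32, H2-T23 at -0.07 and 0.35, and Psme1 at -0.07 and 0.08. Of these 8 values, only H2-Q4 in MLL-AF10 was called.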

How the results depend on the processing

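Of the members called, 1 of 1 with CALM-AF10 off, 22 of 25 in Jak1 null cells, 2 of 8 in MLL-AF10 and 2 of 6 in MLL-AF9 stayed called in the same direction under every alternative that could test them, and no called member changed direction. With CALM-AF10 off, the count of 1 called member became 3 with DESeq2, 2 without a filter on low counts and 4 with a replicate block, where the numbers share no stated source and the third pair correlated at 0.02, and it ranged from 1 to 2 when a library was left out (2 without on replicate 1 or without off replicate 3). In Jak1 null cells the count of 25 ranged from 23 to 25, also with the replicate block (25). In MLL-AF10 the count of 8 fell to 2 without a filter on low values, ranged from 5 to 8 when a library was left out (5 without DOX replicate 2 or 3) and was 10 with the replicate block. In MLL-AF9 the count of 6 ranged from 2 to 4 when a library was left out (3 without DMSO replicate 2, 2 without DMSO replicate 3) and was 5 with the replicate block. The causes were not tested. Leaving out a library leaves 2 against 3, so fewer libraries enter those fits. All of the direction changes were in members not called in that comparison under any alternative. With CALM-AF10 off, Gbp7 was at 0.002 with DESeq2, 0.001 with relative-log size factors and 0.001 with upper-quartile factors, and Gbp9 was at 0.015 with DESeq2 and 0.045 with the replicate block. In MLL-AF10, Igtp was at -0.001 after quantile normalization, and in MLL-AF9, with pseudocounts, H2-Q6 was at -0.308 (0.1) and Tap1 at -0.000 (5). When each library was left out in turn, log2 differences with CALM-AF10 off ranged in H2-T23 from -0.13 to 0.14, H2-Eb1 from -0.22 to 0.44, Cd74 from -0.19 to 0.21, Gbp7 from -0.032 to 0.029, Gbp9 from -0.32 to 0.30, Tapbp from -0.034 to 0.012, H2-K1 from -0.11 to 0.032, Tap2 from -0.089 to 0.034, Ciita from -0.39 to 0.026, H2-Aa from -0.42 to 0.078, H2-M3 from -0.054 to 0.19, Psmb8 from -0.005 to 0.20, Psmb9 from -0.036 to 0.19 and Psme1 from -0.016 to 0.11. In Jak1 null cells the range was for Irgm2 from -0.099 to 0.030. In MLL-AF10 the ranges were H2-M3 from -0.043 to 0.044, Tapbpl from -0.038 to 0.001, H2-DMb1 from -0.020 to 0.073, Cd74 from -0.033 to 0.084, Ifi47 from -0.12 to 0.013, Irf1 from -0.027 to 0.005, H2-DMa from -0.065 to 0.028, Igtp from -0.027 to 0.033, Psmb10 from -0.067 to 0.006 and Tapbp from -0.011 to 0.028. In MLL-AF9 they were H2-Q6 from -0.62 to 0.98, Tap1 from -0.12 to 0.18, Erap1 from -0.032 to 0.057, Gbp5 from -0.16 to 0.32, H2-M3 from -0.077 to 0.17, H2-Q7 from -0.11 to 0.21, Psmb9 from -0.10 to 0.22, Nlrc5 from -0.40 to 0.019, H2-DMb1 from -0.13 to 0.004 and Gbp7 from -0.20 to 0.007. Depth is unknown in the MLL models, and off replicate 3 of CALM-AF10 had the fewest counts.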
